A study of Mus musculus with 7 samples.

Results

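The genes that make bone mineral and mark bone-embedded osteocytes were followed in CD24 and CD29 positive cells of the mouse femur. They were chosen by name as a list of 10 genes: the osteocalcin genes Bglap and Bglap2, Spp1, Ibsp, Alpl, Dmp1, Mepe, Phex, Ifitm5 and Sost. All 10 of 10 were found among the 42687 gene identifiers of the count table, and all 10 passed the filter on low counts. C57BL/6 mice, aged 3 months, had eaten a high fat diet (HFD, 60% fat) or a control low fat diet (LFD, 10% fat) over 4 weeks. Femurs were broken up mechanically and with enzymes, and cells carrying both surface proteins, which the labels call skeletal stem cells, were sorted for RNA sequencing. There were 3 HFD libraries (numbers 2 to 4) and 4 LFD libraries (numbers 1 to 4). The labels give neither the sex of the mice nor whether a library came from 1 animal or from several, so p-values measure the spread between these libraries, which may be technical in part.

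Bone mineral forms when osteoblasts secrete a collagen matrix and load it with calcium phosphate. Alkaline phosphatase, the product of Alpl, removes pyrophosphate, which blocks crystal growth. The SIBLING proteins (osteopontin, bone sialoprotein, dentin matrix protein and MEPE, from Spp1, Ibsp, Dmp1 and Mepe) are acidic phosphoproteins that bind mineral and are encoded side by side. Osteocalcin is a small calcium-binding protein that mature osteoblasts release. Osteoblasts that become buried turn into osteocytes, which make DMP1, the protease PHEX and MEPE, and, when mature, sclerostin (Sost), which restrains bone formation. Skeletal stem cells are thought of as lying before these stages, and hypertrophic chondrocytes, osteoclasts and macrophages share some of the genes.

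Total counts ranged from 20885803 to 24681838 in HFD libraries and from 17391613 to 23172976 in LFD libraries. Levels below are CPM, counts scaled to a common library total by TMM, a normalization that evens out differences in RNA composition, and fold changes are HFD against LFD. Cd24a (2077 ± 1161 CPM in HFD, 3471 ± 1448 CPM in LFD) and Itgb1, the CD29 gene (446 ± 59.8 CPM in HFD, 426 ± 57.8 CPM in LFD), were present in the sorted cells (SD, n = 3 and n = 4). Ptprc, the CD45 gene of blood cells, measured 52.4 ± 3.21 CPM in HFD and 10.1 ± 10.5 CPM in LFD. Xist had 0 counts in each HFD library and 257 to 526 counts in each LFD library, and 4 Y-linked genes together had 2494 to 3405 counts in each HFD library and 1 to 5 in each LFD library. The HFD libraries thus carried the transcripts of male animals and the LFD libraries those of female animals, so diet and sex cannot be told apart in any comparison below.

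The osteocalcin genes lie next to each other on the minus strand of chromosome 3 (mm10 build), Bglap at 88383501 to 88384464 and Bglap2 at 88377736 to 88378699. Their coding sequences from the GENCODE M21 transcripts are shown because the copies are nearly the same and reads can be given to either. The 285 coding bases (without the stop codon) differed at 4 positions, which stand in capitals:
Bglap: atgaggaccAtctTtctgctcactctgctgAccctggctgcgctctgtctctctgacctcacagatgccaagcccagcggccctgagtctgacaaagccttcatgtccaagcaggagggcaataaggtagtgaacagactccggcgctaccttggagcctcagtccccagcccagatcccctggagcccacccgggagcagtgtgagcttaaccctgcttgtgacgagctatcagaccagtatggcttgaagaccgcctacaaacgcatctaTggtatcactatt
Bglap2: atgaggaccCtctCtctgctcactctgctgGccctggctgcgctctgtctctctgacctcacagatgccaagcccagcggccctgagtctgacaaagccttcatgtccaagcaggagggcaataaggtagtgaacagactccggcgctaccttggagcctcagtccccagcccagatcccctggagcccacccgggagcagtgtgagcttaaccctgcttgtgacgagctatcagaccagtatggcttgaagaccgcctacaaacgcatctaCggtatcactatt
Counted from 1 at the first base of the start codon, with the base of Bglap first, the differences were A10C, T14C, A31G and T273C. Of the 391 windows of 50 bases in the Bglap transcript, 292 (74.7%) also occurred in a Bglap2 transcript, and 80 (20.5%) in a transcript of Bglap3, the third copy. Reads were 50 bases from each end of a fragment, so most single ends from Bglap fit Bglap2 as well, and how the authors' counting treated them is not given in the sources used here.

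The 250 bases before the start of transcription, from RefSeq on the GRCm38.p6 build, were searched for TGTGGT, the core letters bound by RUNX2, the factor that commits cells to the osteoblast fate. Both strands were searched (the other strand reads ACCACA). A match was found in 4 of the 9 members with an entry, Bglap, Spp1, Dmp1 and Mepe, and in 14.0% of all 32851 such windows of the table. These 4 windows are shown, 5′ to 3′ along the gene, with the matching letters in capitals:
Bglap, chr3:88384467-88384716, minus strand: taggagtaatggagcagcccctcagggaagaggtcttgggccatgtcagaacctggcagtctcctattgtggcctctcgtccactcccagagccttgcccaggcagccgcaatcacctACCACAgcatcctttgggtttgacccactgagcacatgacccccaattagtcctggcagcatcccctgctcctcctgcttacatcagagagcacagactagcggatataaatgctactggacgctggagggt
Spp1, chr5:104434861-104435110, plus strand: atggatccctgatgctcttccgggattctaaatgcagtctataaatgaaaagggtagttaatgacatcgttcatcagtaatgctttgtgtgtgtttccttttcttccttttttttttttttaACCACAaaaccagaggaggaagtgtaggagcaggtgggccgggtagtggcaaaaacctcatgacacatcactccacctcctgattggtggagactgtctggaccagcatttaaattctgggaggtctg
Dmp1, chr5:104202367-104202616, plus strand: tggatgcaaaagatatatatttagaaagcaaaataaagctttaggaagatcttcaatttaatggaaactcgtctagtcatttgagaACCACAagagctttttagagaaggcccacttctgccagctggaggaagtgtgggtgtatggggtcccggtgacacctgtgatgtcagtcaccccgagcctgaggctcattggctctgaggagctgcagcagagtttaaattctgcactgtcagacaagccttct
Mepe, chr5:104325079-104325328, plus strand: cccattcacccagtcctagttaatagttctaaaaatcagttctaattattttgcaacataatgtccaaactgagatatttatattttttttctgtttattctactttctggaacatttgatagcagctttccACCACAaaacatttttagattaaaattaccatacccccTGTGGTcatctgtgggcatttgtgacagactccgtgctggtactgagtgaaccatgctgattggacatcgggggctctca
The match began 132 bases before the start in Bglap, 128 in Spp1, 164 in Dmp1, and 118 and 80 in Mepe. Such a match is a description of the letters and was not tested as a binding site. Runx2 itself measured 31.0 ± 7.29 CPM in HFD and 24.0 ± 7.73 CPM in LFD (SD, n = 3 and n = 4).

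Relative to transcript length (the longest coding transcript of each gene) and averaged over all libraries, Spp1 led at 2761 CPM per kb, followed by Ibsp at 1724, Bglap at 1018, Alpl at 404 and Bglap2 at 403 CPM per kb. Dmp1 stood at 74.4, Mepe at 13.3, Ifitm5 at 12.6, Phex at 9.76 and Sost at 0.440 CPM per kb. The most abundant were thus genes that osteoblasts make, of which hypertrophic chondrocytes share Spp1, Ibsp and Alpl, and their cell source was not tested. The mature osteocyte gene Sost was close to the limit of counting. From Spp1 down to Bglap2 the ranges over libraries of neighbours in this order overlapped, as did those of Mepe, Ifitm5 and Phex, whereas Dmp1 lay apart from the genes above and below it and Sost lay below all others except Mepe. Spp1 and Ibsp together made up 78.4% to 82.8% of the summed CPM of the 10 genes in HFD libraries and 74.5% to 83.3% in LFD libraries. The 10 genes summed to 16567, 13752 and 8266 CPM in HFD libraries 2, 3 and 4, against 8363, 6200, 7301 and 7345 CPM in LFD libraries 1 to 4, so HFD 4 lay within the range of the LFD libraries.

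The diet comparison was fitted over all 14304 genes with edgeR's quasi-likelihood test, and p-values were adjusted over all of them by Benjamini-Hochberg. None of the 10 members passed an adjusted p of 0.05, where 0.035% of all genes passed (5 genes). Among those 5 genes were 3 sex-linked genes higher and 1 lower in HFD. Without the sex-linked genes, an alternative chosen after seeing the data, the edgeR test called 0 genes. No member passed with DESeq2, which called 2.25% of the genes it tested, or with limma-voom. At an unadjusted p of 0.05 the edgeR test had 3 members higher in HFD (Bglap, Bglap2 and Spp1) and 0 lower, beside 5.18% of all genes higher and 2.35% lower, and the first pair are copies that share reads. The fitted fold change was positive for 9 of 10 members and negative for Phex, where 51.5% of all genes had a positive one. The median log2 fold change was 0.85 over the members and 0.02 over all genes tested. The groups did not overlap for 1 member, Alpl, higher in HFD, beside 8.4% of all genes higher and 3.47% lower in HFD without overlap. Differences named below as higher or lower values are therefore descriptions of these libraries.

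**Figure D1:**
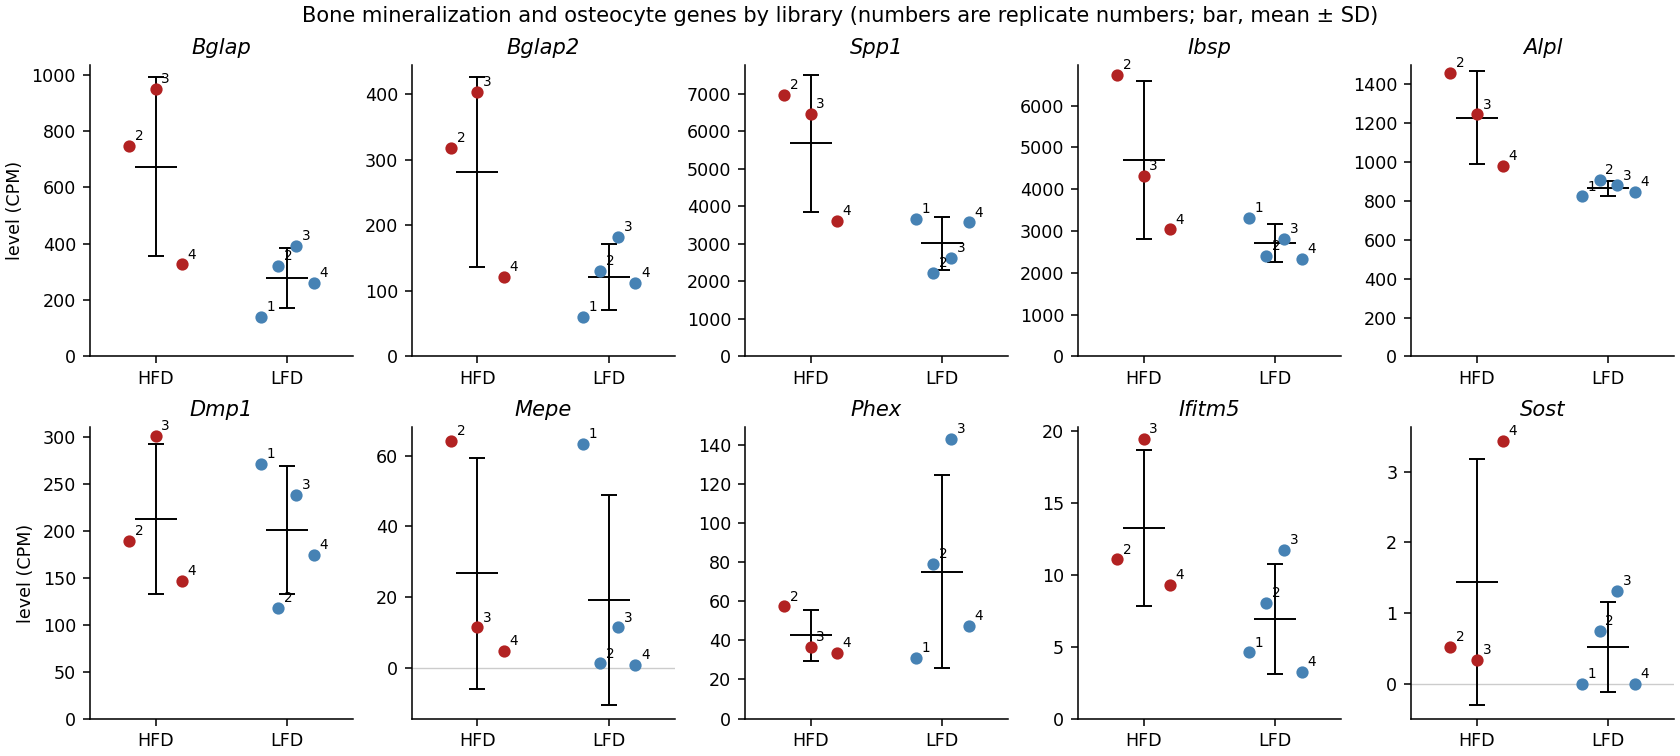
Level of each of the 10 genes in CPM (vertical axes, linear, each gene on its own scale) in the 3 HFD libraries (red) and the 4 LFD libraries (blue), with replicate numbers beside the points and bars for mean ± SD. HFD 2 and HFD 3 stand above every LFD library for Bglap, Bglap2, Spp1, Ibsp and Alpl, and HFD 4 does so for Alpl and Sost only.

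Osteocalcin had the largest differences among the abundant members. Bglap measured 746, 948 and 326 CPM in HFD libraries 2, 3 and 4, against 141, 322, 392 and 260 CPM in LFD libraries 1 to 4. HFD 2 and HFD 3 were above every LFD library, while HFD 4 lay inside the LFD range, next to LFD 2. This was a log2 fold change of 1.27 ± 0.45 (SE, 95% interval 0.24 to 2.30), with an edgeR adjusted p of 0.542. Bglap2 measured 319, 404 and 121 CPM in HFD libraries, against 59.7, 130, 183 and 112 CPM in LFD libraries, in the same order of libraries except that HFD 4 and LFD 2 changed places. Its log2 fold change was 1.22 ± 0.47 with an edgeR adjusted p of 0.613. Bglap3 had 3 to 18 counts in each HFD library and 1 to 3 counts in each LFD library, too few to be tested, so that the other two copies carried nearly all osteocalcin reads. With the counts of all 3 copies added into 1 gene the log2 fold change was 1.256 ± 0.46 (95% interval 0.19 to 2.32, edgeR adjusted p = 0.589).

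The reads were split between the copies in similar shares in all libraries. Bglap held 70.1%, 70.1% and 72.9% of the reads of both genes in HFD libraries 2, 3 and 4, against 70.3%, 71.2%, 68.2% and 70.0% in LFD libraries 1 to 4. The Wilson 95% interval was 72.0% to 73.8% for HFD 4, the highest share, and 67.2% to 69.1% for LFD 3, the lowest. The mean share was 71.0% ± 1.62 in HFD and 69.9% ± 1.24 in LFD (SD, n = 3 and n = 4), and the difference of 1.14 percentage points did not pass an exact permutation test (two-sided p = 0.400 over 35 assignments, smallest possible 0.0286, adjusted p = 0.486 over 2 ratio tests). Because reads can be given to either copy, this share describes the counting as well as the cells.

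Relative to bone collagen, osteocalcin overlapped between the diets. The log2 ratio of Bglap plus Bglap2 to Col1a1, the main collagen of bone, was -3.98, -4.36 and -5.32 in HFD libraries 2, 3 and 4, against -4.36, -5.61, -5.01 and -4.45 in LFD libraries 1 to 4. HFD 2 had the highest ratio, HFD 3 exceeded the highest LFD library, LFD 1, by less than the rounding of these values, and HFD 4 lay within the LFD range. The means were -4.55 ± 0.69 in HFD and -4.86 ± 0.58 in LFD (SD, n = 3 and n = 4), a difference of 0.31 that did not pass an exact permutation test (two-sided p = 0.486, smallest possible 0.0286). Col1a1 measured 20791 ± 5995 CPM in HFD and 13208 ± 8458 CPM in LFD.

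The SIBLING genes run in 1 direction on chromosome 5, in the order Dspp, Dmp1, Ibsp, Mepe and Spp1. Dmp1 lies at 104202613 to 104214102, Ibsp at 104299171 to 104311469, Mepe at 104325329 to 104338611 and Spp1 at 104435118 to 104441050, with 238.4 kb measured from the start of Dmp1 to the end of Spp1. Dspp, the dentin gene of teeth, had 0 counts in every library, where 3 counts, the limit that a count of 0 allows, would be 0.105 to 0.145 CPM in HFD libraries and 0.117 to 0.188 CPM in LFD libraries. Of the transcripts annotated between Dmp1 and Spp1, the long noncoding RNA Gm31048 had 134 counts over all libraries, and a small unfinished annotation, Gm42793, which overlaps Spp1 on the same strand, had 68.

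**Figure D2:**
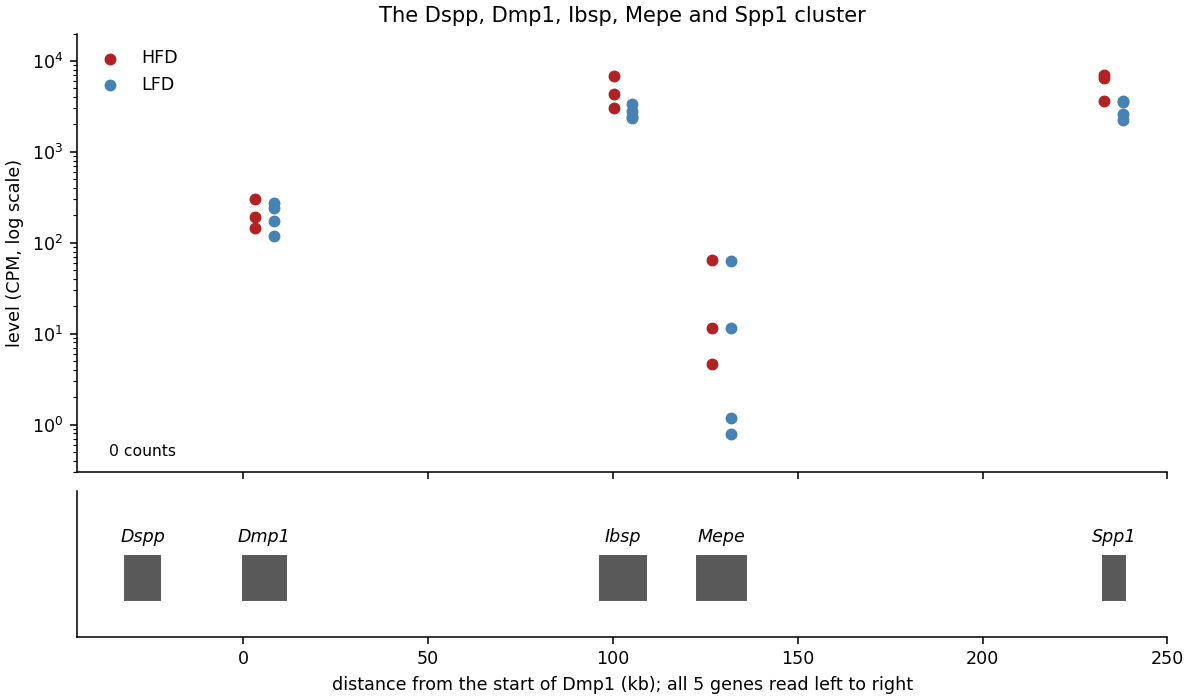
Upper panel, level in CPM (log scale) of the genes of the chromosome 5 cluster in HFD (red) and LFD (blue) libraries, each point a library; lower panel, position of each gene as distance from the start of Dmp1 in kb. Ibsp and Spp1 lie between 2220 and 6978 CPM in all libraries, Dmp1 between 118 and 301, and Mepe spreads from 0.791 to 64.3 CPM in both groups together.

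Spp1, for osteopontin, which anchors cells to mineral and limits crystal growth, was the most abundant member. It measured 6978, 6465 and 3602 CPM in HFD libraries 2, 3 and 4, against 3657, 2220, 2636 and 3572 CPM in LFD libraries 1 to 4. HFD 2 and HFD 3 were above the LFD range, and HFD 4 lay just below its top. Its log2 fold change was 0.91 ± 0.36 (SE, 95% interval 0.09 to 1.73, edgeR adjusted p = 0.613). Ibsp, for bone sialoprotein, which seeds mineral crystals, measured 6744, 4321 and 3038 CPM in HFD libraries, against 3313, 2411, 2805 and 2328 CPM in LFD libraries. Here too HFD 2 and HFD 3 were above the LFD range and HFD 4 lay within it. For Ibsp the log2 fold change was 0.79 ± 0.35 (95% interval -0.01 to 1.60, edgeR adjusted p = 0.671) and was 0.43 without HFD 2. The log2 ratio of Spp1 to Ibsp was 0.05 to 0.58 in HFD libraries and -0.12 to 0.62 in LFD libraries.

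Alpl, which marks cells early in the osteoblast course, had the smallest range over libraries of the members, 1.77-fold. It measured 1457, 1245 and 981 CPM in HFD libraries 2, 3 and 4, against 823, 909, 880 and 847 CPM in LFD libraries 1 to 4. The LFD libraries lay within 1.10-fold of each other and all 3 HFD libraries were above them, HFD 4 by the smallest margin. Alpl had a log2 fold change of 0.51 ± 0.24 (SE, 95% interval -0.05 to 1.06) with an edgeR adjusted p of 0.685. Relative to Col1a1 the groups overlapped, and the log2 ratio of Alpl to Col1a1 was -4.48 to -3.53 in HFD libraries and -4.60 to -2.33 in LFD libraries. Alpl (chromosome 4, 137741733 to 137796384) is also made by hypertrophic chondrocytes.

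Of the osteocyte genes, none was free of overlap between the diets. Dmp1, which osteocytes use to regulate phosphate and mineral, measured 189, 301 and 147 CPM in HFD libraries 2, 3 and 4, against 271, 118, 239 and 175 CPM in LFD libraries 1 to 4. HFD 3 was above the LFD range, and HFD 2 and HFD 4 lay within it. The log2 fold change was 0.08 ± 0.36 (SE, 95% interval -0.74 to 0.90, edgeR adjusted p = 0.964), and its sign turned when HFD 3 or LFD 2 was left out (-0.24 and -0.10).

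Mepe, whose product releases a peptide that slows mineralization, had the widest range of the members with counts in every library. It measured 64.3, 11.4 and 4.63 CPM in HFD libraries 2, 3 and 4, against 63.2, 1.19, 11.4 and 0.791 CPM in LFD libraries 1 to 4. HFD 2 and LFD 1 stood high, HFD 3 and LFD 3 were at 11.4 CPM, and the lowest were LFD 2 and LFD 4, with 19 and 16 counts. The range was 13.9-fold within HFD and 80.0-fold within LFD. Between the diets the log2 fold change was 0.48 ± 1.44 (95% interval -2.83 to 3.79, edgeR adjusted p = 0.947), was -1.27 without HFD 2 and 2.61 without LFD 1. LFD 1, high for Mepe and Dmp1, had the lowest Bglap and Bglap2 of all libraries.

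Phex, the X-linked protease gene (chromosome X, 157162075 to 157415312) whose loss causes hypophosphataemic rickets, was the member with lower values in HFD. It measured 57.4, 36.7 and 33.6 CPM in HFD libraries 2, 3 and 4, against 31.1, 79.1, 143 and 47.3 CPM in LFD libraries 1 to 4. LFD 3 and LFD 2 stood above the HFD libraries and LFD 1 below them. Phex had a log2 fold change of -0.82 ± 0.51 (SE, 95% interval -1.98 to 0.35, edgeR adjusted p = 0.704), and -0.29 without LFD 3.

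Sost (chromosome 11, 101962458 to 101967015) had 15, 7 and 72 counts in HFD libraries 2, 3 and 4, against 0, 12, 21 and 0 counts in LFD libraries 1 to 4. In CPM this was 0.525, 0.338 and 3.44 in HFD and 0, 0.752, 1.31 and 0 in LFD. The highest library was HFD 4, and without it the log2 fold change of 1.48 ± 1.75 (edgeR adjusted p = 0.850) became -0.23. At these counts no difference between the diets was detectable. Ifitm5, an osteoblast membrane protein gene (chromosome 7, 140948958 to 140950291) whose mutation causes a brittle bone disease, measured 11.1, 19.5 and 9.32 CPM in HFD libraries, against 4.60, 8.08, 11.8 and 3.26 CPM in LFD libraries. HFD 3 alone was above the LFD range, and the log2 fold change was 0.94 ± 0.51 (95% interval -0.24 to 2.13, edgeR adjusted p = 0.693).

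**Figure D3:**
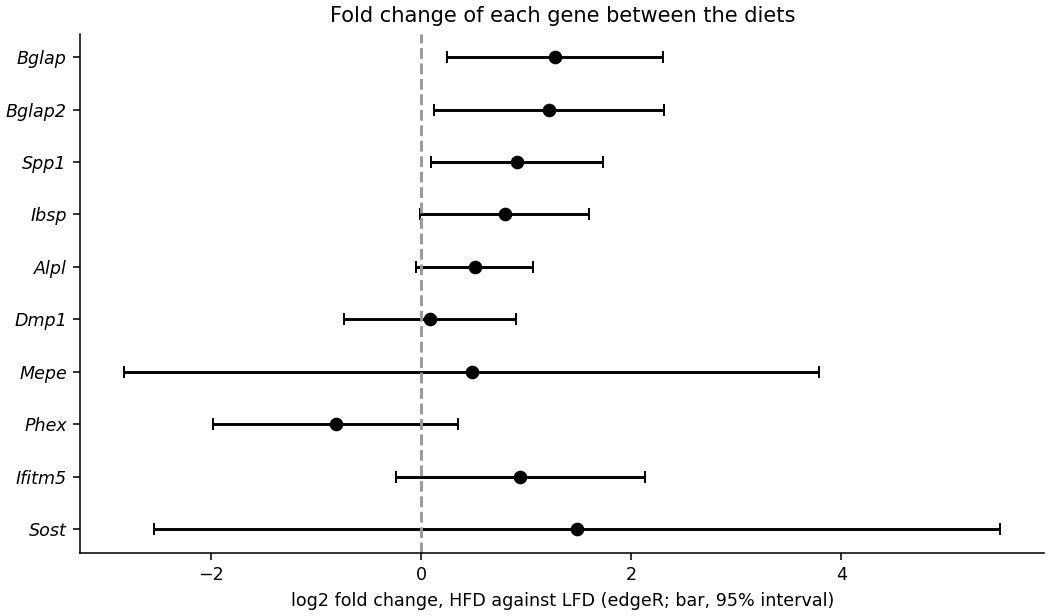
Log2 fold change of each gene, HFD against LFD (horizontal axis), from edgeR's quasi-likelihood test, with bars for the 95% interval. The intervals of Bglap, Bglap2 and Spp1 lie above 0 before adjustment over all genes, those of the other 7 members include 0, and Mepe and Sost have the widest.

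Ratios of counts within a library do not depend on how libraries are scaled. The log2 ratio of Phex to Bglap plus Bglap2 was -4.21, -5.20 and -3.73 in HFD libraries 2, 3 and 4, against -2.69, -2.52, -2.01 and -2.98 in LFD libraries 1 to 4. Every HFD library was below every LFD library, and the means were -4.38 ± 0.75 in HFD and -2.55 ± 0.41 in LFD (SD, n = 3 and n = 4), a difference of -1.84. The same ratio for Dmp1 was -2.49, -2.17 and -1.61 in HFD libraries, against 0.44, -1.94, -1.27 and -1.09 in LFD libraries, and the groups overlapped through LFD 2. The log2 ratio of Dmp1 to Ibsp was -5.15 to -3.84 in HFD and -4.35 to -3.55 in LFD libraries. Of 9 other ratios computed, Phex to osteocalcin was the one without overlap, and these ratios were chosen with the levels known and carry no test.

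**Figure D4:**
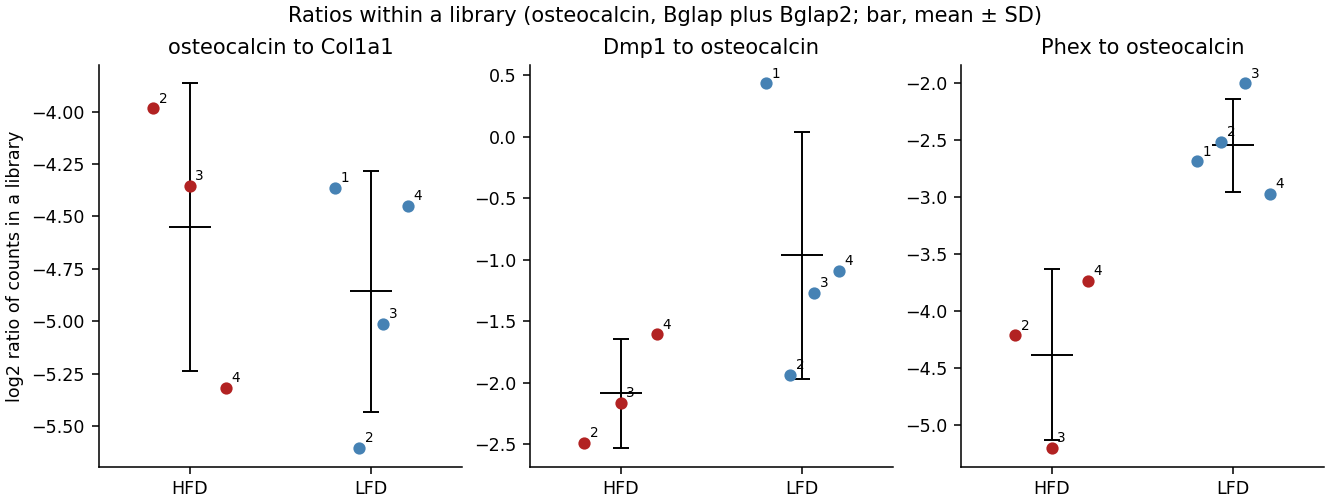
Log2 ratio of counts within each library (vertical axes) for osteocalcin (Bglap plus Bglap2) to Col1a1, Dmp1 to osteocalcin and Phex to osteocalcin in HFD (red) and LFD (blue) libraries, with replicate numbers and bars for mean ± SD. The groups overlap in the first 2 panels, and in the third the HFD libraries (-5.20 to -3.73) lie below the LFD libraries (-2.98 to -2.01).

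How alike 2 genes were was measured as the root mean square difference of their log2 CPM, each centred on its mean over the 7 libraries. Bglap and Bglap2, which share reads, were closest at 0.09, followed by Ibsp with Alpl at 0.27, Spp1 with Ibsp at 0.28 and Spp1 with Alpl at 0.36. Ifitm5 came nearest to Bglap at 0.49. Mepe and Sost were the farthest pair at 2.99, Mepe lay 2.31 from Bglap, and Dmp1 lay 0.92 from Phex. By the same measure, among 8977 other named genes with a mean of at least 8 CPM, the genes closest to Bglap plus Bglap2 were Fam180a (0.31), Heph (0.34) and Lipc (0.34). Closest to Dmp1 were Sema3d (0.15), Tars (0.18) and Tfam (0.18), and closest to Alpl were Ahsa2 (0.06), Slc12a4 (0.06) and Tmem120a (0.09). A small distance is easier to reach for a gene that varies little, such as Alpl.

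**Figure D5:**
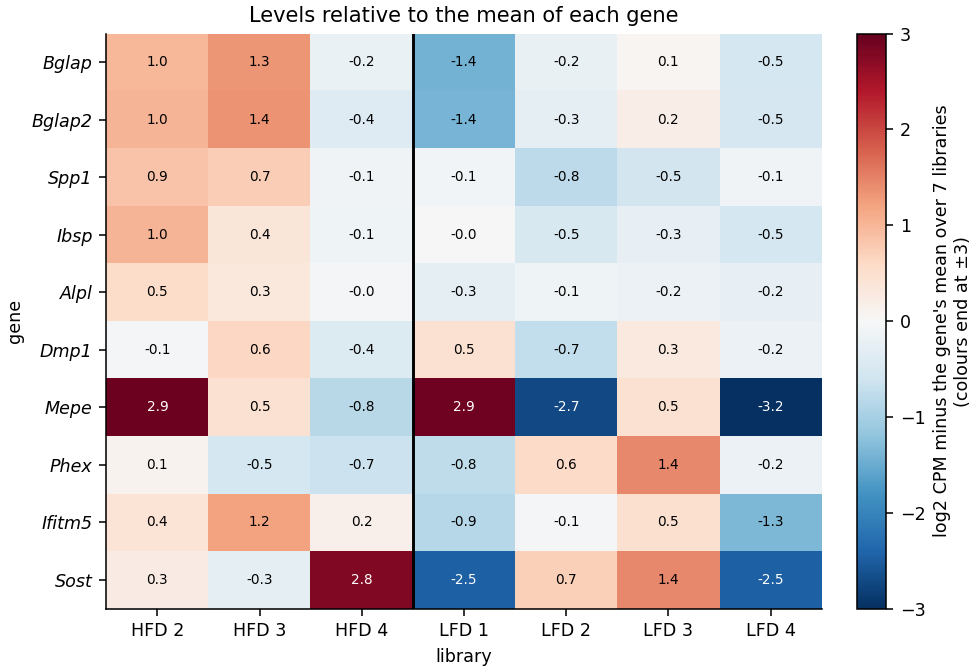
Log2 CPM of each gene minus its mean over the 7 libraries, by library, with HFD left of the line and LFD right of it and colours ending at ±3. HFD 2 and HFD 3 are positive for Bglap, Bglap2, Spp1, Ibsp and Alpl, HFD 4 is close to 0 for these, and Mepe is high in HFD 2 and LFD 1.

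Other genes of the mineralization pathway were taken from a list of 18, of which 16 could be tested. The edgeR test called 0 of them and DESeq2 called 0. At an unadjusted p under 0.05 the edgeR test had 1, Bmp1, higher in HFD, beside 5.18% of all genes. Fitted values were higher in HFD for 13 and lower for 3, with a median log2 fold change of 0.45, against 0.02 over all genes. Mgp, for matrix Gla protein, which keeps cartilage and vessels free of mineral, was the most abundant of them, at 1457 ± 309 CPM in HFD and 1057 ± 452 CPM in LFD (log2 fold change 0.46 ± 0.38 SE). The annexin genes Anxa2, Anxa5 and Anxa6, whose products sit in matrix vesicles, had log2 fold changes of 0.43, 0.20 and -0.30. Smpd3, for a sphingomyelinase needed for bone mineral, measured 751 ± 239 CPM in HFD and 682 ± 267 CPM in LFD. Ank, the pyrophosphate exporter that opposes Alpl, had a log2 fold change of 0.27 ± 0.23 SE. Bmp1, for the proteinase that trims procollagen and DMP1, measured 143 ± 24.7 CPM in HFD and 90.5 ± 10.1 CPM in LFD (log2 fold change 0.66 ± 0.19 SE, edgeR adjusted p = 0.409). In this list 3 genes were higher in HFD without overlap and 1, Phospho1, was lower, beside 8.4% and 3.47% of all genes. Phospho1 had low levels, 0.497 ± 0.123 CPM in HFD and 1.48 ± 0.789 CPM in LFD. Its log2 fold change was -1.56 ± 0.90 SE (edgeR adjusted p = 0.693). The phosphate hormone gene Fgf23, made by osteocytes, and the liver gene Ahsg had 0 counts in every library.

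The wider osteoblast list, with no member of the 10, gave 16 of 16 genes with higher values in HFD, beside 51.5% of all genes. The median log2 fold change was 0.66, against 0.02 over all genes. Lists of some other cell types also had higher values, as given below. Of the osteoblast genes edgeR called 0 (4 at an unadjusted p under 0.05) and DESeq2 called 2, Sparc and Serpinf1. Over all genes, 5.18% were higher and 2.35% lower at that unadjusted p, and DESeq2 called 2.25%. Sparc, for osteonectin, measured 23185 ± 3536 CPM in HFD and 13667 ± 1250 CPM in LFD (log2 fold change 0.76 ± 0.33 SE, edgeR adjusted p = 0.657, DESeq2 adjusted p = 0.00407). Serpinf1, whose loss causes a mineralization defect of bone, had a log2 fold change of 1.18 ± 0.30 SE (edgeR adjusted p = 0.323, DESeq2 adjusted p = 0.0240). The other two of the 4 most abundant per length beside Sparc and Col1a1 were Col1a2 (0.87 ± 0.53 SE) and Col11a2, which cartilage also makes (0.66 ± 0.37 SE). A list of 13 other osteocyte genes had 10 with higher and 3 with lower values in HFD, a median of 0.37 and 0 called by edgeR (2 at an unadjusted p under 0.05), and DESeq2 called 1. That gene was Gja1, for the gap junction protein connexin 43 that joins osteocytes, at 609 ± 153 CPM in HFD and 291 ± 53.7 CPM in LFD (log2 fold change 1.06 ± 0.27 SE, edgeR adjusted p = 0.309, DESeq2 adjusted p = 0.0137). Tnfrsf11b, for the osteoclast inhibitor osteoprotegerin, Capg and Cd109 had log2 fold changes of 0.73, 0.27 and 0.48.

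RNA of other cell types also differed between these libraries, and its part in the values of the members was not tested beyond the model given here. The 10 erythroid genes took 2.63%, 7.42% and 10.6% of counts in HFD libraries 2, 3 and 4, against 10.4% to 14.4% in LFD libraries. HFD 2, with the least erythroid RNA, had the highest Spp1, Ibsp, Alpl and Mepe, and HFD 3 the highest Bglap, Bglap2, Dmp1 and Ifitm5. HFD 4, whose erythroid share lay within the LFD range, was also within the LFD range for 8 of the 10 members. LFD 1, with the lowest erythroid share of the LFD libraries (10.4%), had the lowest Bglap, Bglap2, Phex and Alpl of all libraries. HFD 2 and HFD 3 lay below every LFD library in this share, so the model separates it poorly from diet. With the erythroid share as a term in the model the log2 fold change was closer to 0 for Spp1 (0.44), Ibsp (0.17), Alpl (0.25), Bglap (1.10), Bglap2 (1.002) and Dmp1 (0.04). It was farther from 0 for Ifitm5 (1.27), Sost (2.98) and Phex (-0.999), and it was negative for Mepe (-2.28). In bulk RNA, fewer cells of a type and less RNA per cell cannot be told apart. The 12 granulocyte genes took 0.973% to 1.59% of counts in HFD and 0.106% to 0.538% in LFD. These ranges do not overlap, so a model holding both terms can hardly tell this share from diet. The values below are thus extrapolations and not levels corrected for granulocytes. With the granulocyte share as a term in place of the erythroid share, the log2 fold change was farther from 0 for Spp1 (0.97), Ibsp (1.52), Alpl (0.66), Dmp1 (0.59), Ifitm5 (1.92) and Mepe (8.38). It was closer to 0 for Bglap (1.11), Bglap2 (1.06), Phex (-0.50) and Sost (0.16), and no member passed the adjusted threshold with either term. The 10 macrophage genes took 0.191% to 0.205% in HFD and 0.0231% to 0.0819% in LFD. Macrophages and osteoclasts also make Spp1. Lyz2, also made by granulocytes, was most of the macrophage share, at 1732 ± 240 CPM in HFD and 345 ± 256 CPM in LFD.

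Of the 9 osteoclast genes, which took 0.0598% to 0.115% of counts in HFD and 0.0157% to 0.0416% in LFD, Oscar was at 0 in every library, and Atp6v0d2, Ocstamp and Dcstamp were too low to be tested. Mmp9, also made by granulocytes, was most of the osteoclast share in HFD, at 591 ± 318 CPM there and 83.8 ± 83.8 CPM in LFD. Acp5, the osteoclast phosphatase, measured 86.2 ± 39.9 CPM in HFD and 114 ± 47.3 CPM in LFD. Of the 5 osteoclast genes tested, Mmp9, Ctsk and Itgb3 had higher fitted values in HFD, and Acp5 and Calcr lower ones. Hypertrophic chondrocytes share Alpl, Spp1 and Ibsp with osteoblasts, and their 5 genes took 0.129% to 0.221% of counts in HFD and 0.0921% to 0.155% in LFD. Of these, Mmp13 measured 1026 ± 469 CPM in HFD and 627 ± 307 CPM in LFD, and Col10a1 405 ± 158 CPM in HFD and 333 ± 363 CPM in LFD. The 11 general chondrocyte genes took 4.46% to 8.93% of counts in HFD and 3.62% to 5.93% in LFD, with Col2a1, the cartilage collagen, at 29737 ± 8844 CPM in HFD and 22454 ± 8855 CPM in LFD. The 7 genes of reticular stroma took 0.166% to 0.342% in HFD and 0.0445% to 0.0679% in LFD, and the 8 endothelial genes at most 0.00195% in HFD and 0.00495% in LFD. The edgeR test called 0 genes in each of these cell type lists, while DESeq2 called 7 granulocyte, 4 reticular stroma, 2 macrophage and 1 osteoclast gene and 0 in the others. At an unadjusted p under 0.05 the edgeR test had 9 granulocyte, 4 reticular stroma, 4 macrophage, 2 osteoclast and 2 chondrocyte genes, all higher in HFD. Over all genes 5.18% were higher at that p, and DESeq2 called 2.25%. Fitted values were higher in HFD for 12 of 12 granulocyte, 11 of 11 chondrocyte, 9 of 10 macrophage and 6 of 7 reticular stroma genes. Their median log2 fold changes were 2.17, 0.48, 1.32 and 1.55. Hypertrophic chondrocyte genes were higher in 4 of 5 with a median of only 0.06, and osteoclast genes in 3 of 5 (median 1.02). Erythroid genes were higher in 0 of 10 (median -0.98) and endothelial genes in 1 of 4. Higher values in HFD were thus not particular to the bone lists.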

How the data were processed

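RNA from 3 HFD and 4 LFD libraries of sorted femur cells was, per the labels' protocols, amplified by SMART-Seq, prepared with Nextera XT and read for 50 bases from both ends. The deposited values are raw counts per Ensembl gene, 1 column per library, which the authors did not normalize. From the submitters' processing notes come the mm10 build, the aligner STAR 2.5.2b and the counter HTSeq 0.11.2, beside cutadapt. Strand setting and treatment of reads that fit several places: not given in the sources used here. Reads carried no molecular identifiers as far as the labels say, and the binomial intervals and the floor of 3 counts therefore hold counting error alone.

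Symbols were matched for 42250 of 42687 identifiers, and coordinates and transcript lengths came from GENCODE M21 on the same build. Tests used edgeR 4.0.16 in R 4.3.3 (TMM, filterByExpr, robust quasi-likelihood fit, diet as the sole term), with DESeq2 1.42.0 and limma 3.58.1 as alternatives. SEs are the log2 fold change divided by the square root of F, and intervals are 95%. Log2 CPM used a prior count of 2. The procedure was also run on simulated counts, with genes drawn independently and no sex difference. That run does not measure how well changes of the members could be found in these libraries. The members and lists were chosen with earlier results of these data known. Named genes were the members, Bglap3, Dspp, genes between members on chromosome 5, the sort and sex-linked genes, the most abundant of each list (6 of the pathway list and 4 of the osteoblast and osteocyte lists by CPM per kb, and up to 2 of the others by CPM), and the 3 nearest in pattern to osteocalcin, Dmp1 and Alpl. Other genes were named after their values were seen. Every 2 libraries differed beyond sampling noise, with a chi-square of 57.3 to 671 for each degree of freedom. No member protein sequences were used here.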

Additional observations from a re-analysis of the deposited data

Results flagged for a closer look

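Mepe stood at 63.2 CPM in LFD 1, far above the other LFD libraries (11.4, 1.19 and 0.791 CPM), and the gap to the next library, as a share of the range of the 4, passed the 95% critical value of Dixon's test. Of 12 such groups tested (the 10 members and 2 ratios) this was the one that passed. Chance flags about 1 group in 20 where values are normally distributed. HFD 2 had a similar Mepe level, at 64.3 CPM.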

How the results depend on the processing

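No member passed the adjusted threshold under any of the 21 alternatives run (20 for Bglap2, which 1 of them merged with the other copies). The log2 fold change kept its sign for Bglap (0.95 to 1.61), Bglap2 (0.86 to 1.58), Spp1 (0.44 to 1.16), Ibsp (0.17 to 1.52), Alpl (0.25 to 0.66), Ifitm5 (0.57 to 1.92) and Phex (-1.10 to -0.29). With a library left out it ranged from -0.24 to 0.29 for Dmp1, -1.27 to 2.61 for Mepe and -0.23 to 2.52 for Sost. It turned for Dmp1 without HFD 3 (-0.24) or LFD 2 (-0.10), for Mepe without HFD 2 (-1.27) or with the erythroid share as a term (-2.28), and for Sost without HFD 4 (-0.23). With the granulocyte share as a term, which can hardly be told from diet, Mepe had 8.38. The 5 genes called over the whole table became 8 without the filter, 0 with a stricter filter, 361 by DESeq2, 28 by limma-voom, 10 at an adjusted p of 0.1, 1 and 0 with the erythroid or granulocyte share as a term, 0 without the sex-linked genes (an alternative chosen after seeing the data) and 1 to 6 with a library left out. With replicate number as a block, on libraries 2 to 4 of each diet, 0 genes and 0 members were called, and Bglap had a log2 fold change of 0.95. Same-numbered HFD and LFD libraries did not deviate together (correlation -0.095 for number 2, 0.026 for number 3 and -0.062 for number 4), so the numbers were not taken to pair them. Leaving out a library gave differences in the Bglap share of 0.20 to 1.62 percentage points and in the log2 ratio to Col1a1 of 0.02 to 0.69, and Col1a2 or Sparc in its place gave 0.17 and 0.46. The small number of libraries limits every estimate, and counts limit Sost and Bglap3.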
